A study of Mus musculus with 12 samples.

Results

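Klf4 siRNA was compared with a non-targeting siRNA (Scramble) in GT1-7 cells, and 12663 tested genes were described, with weight on functions outside interferon, p53, lysosomal and GnRH genes. The comparison took all samples whose titles name one of these 2 siRNAs, 8 of the 12 samples of the study. GT1-7 cells are a clonal mouse line of hypothalamic neurons that make gonadotropin-releasing hormone (GnRH), derived from tumours driven by SV40 large T antigen, a viral protein that binds p53 and RB. The 4 Klf4 siRNA samples received an siRNA against Klf4 and the 4 Scramble samples a non-targeting one, both carried into the cells with Lipofectamine 2000 over 24 h. Neither group was given a further agent, and the remaining 4 samples, a serum-starved Vehicle group in calcium-free medium with no stated transfection, entered only an alternative fit. One siRNA stood on each side, so loss of Klf4 and any other effect of that siRNA cannot be told apart. The labels do not say whether samples came from separate cultures, so p-values measure only the spread between these samples, which may be technical.

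KLF4 is a zinc finger transcription factor of the Krüppel-like family that binds GC-rich DNA with the letters CACCC and can activate or repress genes. It is known for its part in epithelial differentiation, for slowing the cell cycle and for reprogramming cells to pluripotency. In mouse neurons it is also known to restrain the growth of axons. The related SP factors bind similar GC-rich boxes.

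Klf4 itself was low in all 8 libraries and lower after its siRNA. It had 1.36, 0.944, 1.82 and 1.48 CPM (counts scaled to library size) in the Klf4 siRNA samples, against 4.68, 4.5, 3.59 and 3.47 CPM in Scramble, from 30 to 61 reads a sample against 93 to 187. The groups did not overlap, and the log2 fold change, Klf4 siRNA over Scramble as in all that follows, was -1.53 ± 0.19 (each ± is an SE, n = 4 each; edgeR adjusted p = 5.8e-05). The gene lies on the minus strand of chromosome 4 (chr4:55527143-55532466, mm10). Total counts were 30039874 to 33479868 in the Klf4 siRNA samples and 25991029 to 39672749 in Scramble. On principal components, 59.4% of the variance separated the groups, and a second component with 12.5% set Klf4 siRNA sample 1 apart from the others. In that sample and in Klf4 siRNA sample 4, 3 repeat-like gene models (Gm10800, Gm10801 and Gm21738) took 0.1% and 0.0442% of counts, against at most 0.00266% in any other library.

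Many genes differed by a little. At an adjusted p under 0.05, 2345 genes rose (18.5% of those tested) and 2216 fell (17.5%), 36.0% in all, and these shares are the background for every list below. For 4391 genes (34.7%) the 2 groups did not overlap. Genes averaging 5 or more in log2 CPM, called well measured here, numbered 7072 and had a mean of at least 1045 reads a sample. Among them 1503 rose (21.3%) and 1381 fell (19.5%), with a median size of 0.25 on the log2 scale for those called. Of well measured genes, 29 rose at least 2-fold (0.41%) and 20 fell at least 2-fold (0.283%). Tested against a fold of 1.2 in place of no change, 1239 genes passed (9.78%), 636 of them up (5.02%) and 603 down (4.76%). For 4409 well measured genes (62.3%), the 95% interval of the log2 fold change lay within 0.3 on either side of 0. Such genes can also be called: of all tested genes, 712 (5.62%) were called with an interval inside these bounds. In bulk RNA of this kind, fewer cells of a type and less RNA per cell cannot be told apart.

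**Figure D1:**
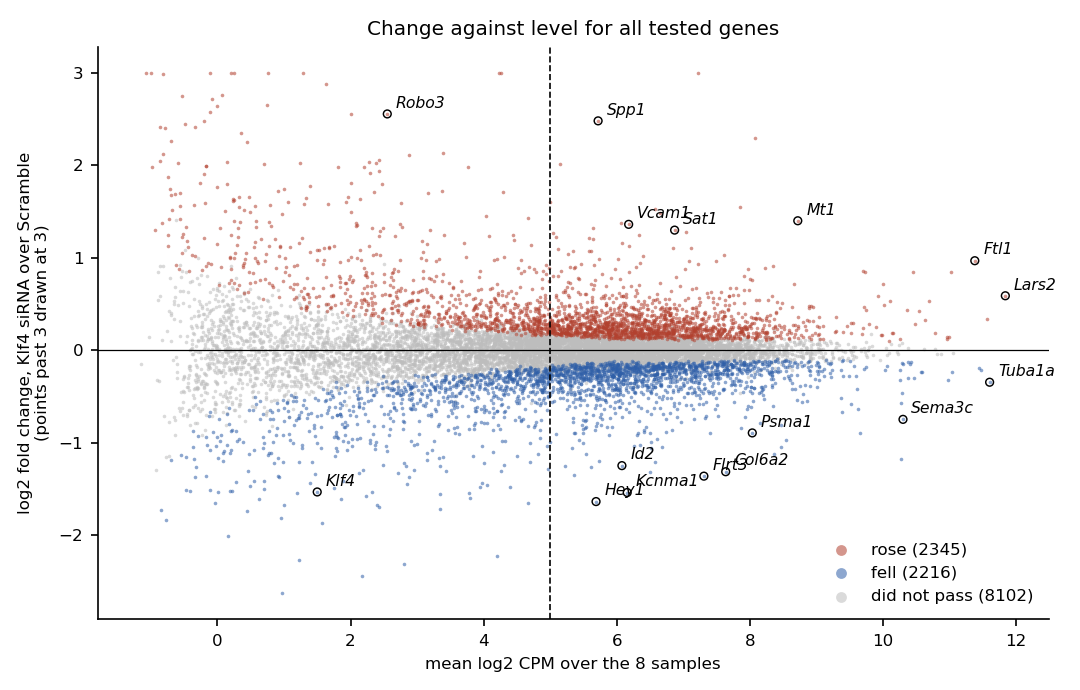
Log2 fold change, Klf4 siRNA over Scramble, against mean log2 CPM for the 12663 tested genes; red points rose, blue points fell, grey points did not pass, and the dashed line marks the bound for well measured genes. Well measured genes such as Spp1 and Mt1 stand above the band and Hey1, Kcnma1 and Col6a2 below it, while most called genes lie close to 0.

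Short transcripts tended to be higher in Klf4 siRNA samples and long ones lower. Genes were split by exon length, the gene length in the deposited table, into 5 bins of equal size. In the shortest bin (median 1740 bases), 29.4% rose and 7.54% fell, and in the longest (median 10020 bases) 8.72% rose and 27.0% fell. Across 5 bins of GC content the shares moved far less, from 15.5% to 20.5% for rises and from 16.8% to 18.2% for falls. The median deviation of the shortest bin from the mean of all 8 samples was 0.037, 0.08, 0.074 and 0.009 on the log2 scale in Klf4 siRNA samples 1 to 4, against -0.081, -0.056, -0.028 and -0.013 in Scramble samples 1 to 4. The groups did not overlap there, but the size varied within each group, and Klf4 siRNA sample 4 and Scramble sample 4 lay close together. In the longest bin Klf4 siRNA sample 4, at 0.017, was above Scramble sample 4, at 0.004. Length moved with the lists below, so counts from a fit with the trend in exon length and GC content removed, called length-adjusted here, stand beside most of them. A list count printed without one moved by no more than 1.5 times in that fit. Counts for parts of a list are unadjusted. What length contributes to each list was not tested beyond that fit.

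**Figure D2:**
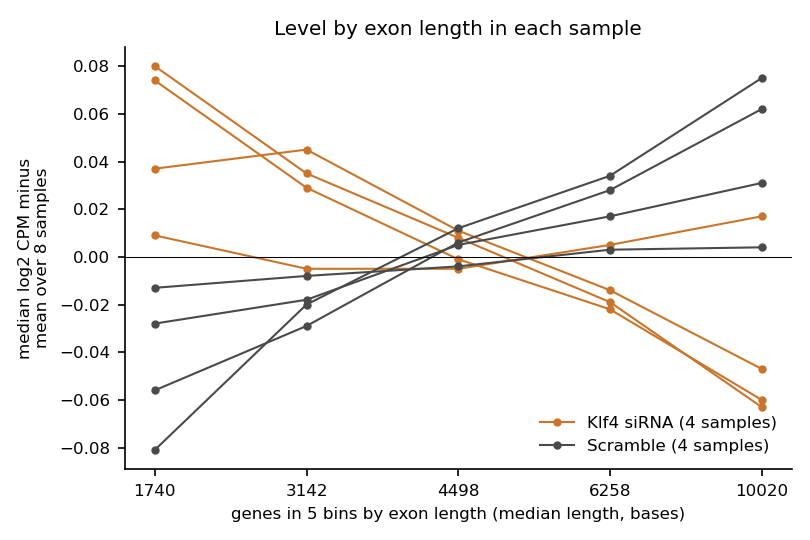
Median log2 CPM of genes in each of 5 exon length bins, relative to the mean of the 8 samples, with 1 line per sample (orange Klf4 siRNA, grey Scramble). Short genes are higher in every Klf4 siRNA sample than in any Scramble sample, and at the longest bin the line of Klf4 siRNA sample 4 lies above that of Scramble sample 4.

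The largest falls among well measured genes included a repressor, an ion channel, and surface and secreted proteins. Hey1, a repressor that Notch and BMP signals induce, had 27.4, 22.7, 27.8 and 22.3 CPM in Klf4 siRNA samples and 75.2, 80.8, 80.9 and 74.6 CPM in Scramble. Every Klf4 siRNA value lay far below every Scramble value, and the log2 fold change was -1.64 ± 0.08 (adjusted p = 1.5e-08). Kcnma1, the pore of the large-conductance potassium channel opened by calcium and voltage, had 33.2, 36.8, 37.9 and 38 CPM, against 113, 109, 102 and 99.1 CPM in Scramble. Its groups were as well separated, at -1.54 ± 0.06 on the log2 scale (adjusted p = 5.8e-09). Flrt3, an adhesion protein that binds latrophilins and UNC5 receptors, had 98.8, 83, 95.6 and 77.5 CPM with Klf4 siRNA and 215, 230, 241 and 226 CPM with Scramble. It was lower in all Klf4 siRNA samples, by -1.36 on the log2 scale. Stc1, a secreted glycoprotein hormone, fell by a log2 change of -1.32, and Tmem255a, a membrane protein, of -1.35. Also among the 15 largest falls were Igfbp5 (-1.26), which binds insulin-like growth factors, B4galt1 (-1.2), a galactosyltransferase, Ccdc80 (-1.13), a matrix protein, and Rab27b (-1.12), which docks secretory vesicles.

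In absolute terms the largest falls outside the lists set aside were in abundant mRNAs. Tuba1a, an alpha tubulin of young neurons, averaged 2735 CPM with Klf4 siRNA and 3474 CPM with Scramble, a log2 change of -0.35, though reads of close tubulin copies may be shared. Sema3c, a secreted guidance signal, had 992, 905, 909 and 957 CPM in Klf4 siRNA samples, against 1467, 1666, 1612 and 1569 CPM in Scramble. It did not overlap between groups and changed by -0.75 ± 0.05. Fhl1, a LIM domain protein, averaged 996 CPM with Klf4 siRNA and 1473 CPM with Scramble, and Flna, the actin crosslinker filamin A, 616 CPM with Klf4 siRNA and 955 CPM with Scramble. Acly, which makes cytosolic acetyl-CoA for lipid synthesis, averaged 1044 CPM with Klf4 siRNA and 1442 CPM with Scramble.

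Apart from small lists of cell type markers, extracellular matrix genes had the largest share of falls in the unadjusted fit (57.5%). Axon guidance genes were close, at 54.2%. Length-adjusted, DNA replication genes had a share about as large as matrix genes. Of 73 tested collagens, laminins and other matrix genes, 42 fell and 4 rose (40 and 6 length-adjusted; 2 rises without Scramble sample 4), with a median log2 change of -0.42 against -0.0002 over all tested genes. Among them 14 of 24 collagens fell and 1 rose. Col6a2, a chain of collagen VI, had 116, 117, 113 and 111 CPM in Klf4 siRNA samples, against 282, 275, 303 and 274 CPM in Scramble, a change of -1.31 ± 0.04 with no overlap (adjusted p = 1.5e-09). Its partner chain Col6a1 averaged 562 CPM with Klf4 siRNA and 1042 CPM with Scramble (-0.89). Cilp, a matrix protein that binds TGF-beta, was low and fell furthest, at 6.41 CPM with Klf4 siRNA, 30.1 CPM with Scramble (-2.23). Thbs1, the matricellular protein thrombospondin 1, fell by a log2 change of -1.2 and the abundant collagen-binding protein Sparc of -0.32. The basement membrane chains Lamb2 (-0.67) and Col4a5 (-0.58) fell too.

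The nidogens, which link laminin to collagen IV, moved in opposite directions. Nid1 had 322, 347, 302 and 331 CPM with Klf4 siRNA and 172, 178, 188 and 170 CPM with Scramble, a rise of 0.88 ± 0.05 (adjusted p = 6.6e-08). Nid2 had 237, 249, 259 and 257 CPM with Klf4 siRNA and 479, 501, 493 and 491 CPM with Scramble, a fall of -0.97 ± 0.04 (adjusted p = 5.8e-09). Neither gene overlapped between groups. Enzymes that cut matrix and their inhibitors were mixed, with 10 rises and 12 falls of 37 tested. Mmp9, a gelatinase, rose to 11.6 CPM in Klf4 siRNA samples, against 5.11 CPM in Scramble, while Htra1, a secreted serine protease, fell to 78.7 CPM with Klf4 siRNA, against 127 CPM with Scramble. Of the genes that build proteoglycan and sialic acid chains, 22 of 58 fell and 6 rose (19 and 6 length-adjusted; 3 rises without Scramble sample 2). Sdc2, a heparan sulfate proteoglycan of the cell surface, averaged 231 CPM with Klf4 siRNA and 476 CPM with Scramble (-1.04). Csgalnact1, which starts chondroitin sulfate chains, fell by a log2 change of -1.25 and St8sia4, a polysialyltransferase, of -1.04. Cd44, the hyaluronan receptor, rose (0.69).

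Axon guidance genes were lower as ligands and as receptors. Of 59 tested, 32 fell and 4 rose (29 and 3 length-adjusted), made up of 15 of 34 ligands and 17 of 25 receptors among the falls. Slit2, a secreted repellent, had 53.2, 59.6, 65.4 and 59.5 CPM in Klf4 siRNA samples, against 105, 138, 135 and 118 CPM in Scramble. The groups did not overlap and the change was -1.06 ± 0.09 (adjusted p = 1.3e-06). Nrp2, a semaphorin co-receptor, averaged 18.1 CPM with Klf4 siRNA and 44 CPM with Scramble (-1.28). Robo3, a receptor that modulates the response to SLIT in commissural axons, went the other way. It had 10.2, 9.76, 9.75 and 10.3 CPM with Klf4 siRNA and 1.55, 1.81, 1.85 and 1.6 CPM with Scramble, a rise of 2.56 ± 0.11 and the largest change of the list. Robo1, another SLIT receptor, chosen after its values were seen, fell to 5.23 CPM with Klf4 siRNA, against 10.5 CPM with Scramble.

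Adhesion molecules and synaptic organisers followed the same direction. Of 54 cadherins, protocadherins, integrins and immunoglobulin adhesion molecules, 24 fell and 1 rose (22 and 1 length-adjusted; 2 rises without Klf4 siRNA sample 4). The contactins Cntn3 (53.8 CPM with Klf4 siRNA, 110 CPM with Scramble), Cntn4 (6.98 CPM with Klf4 siRNA, 20.3 CPM with Scramble) and Cntn1 (374 CPM with Klf4 siRNA, 518 CPM with Scramble), which are GPI-anchored neuronal adhesion proteins, all fell. Itga7, a laminin-binding integrin and the single rise, changed by 0.26. Of 20 synaptic organisers 10 fell and none rose by edgeR (0 also at an unadjusted p under 0.05, by DESeq2 and by limma voom). Tenm3, a teneurin that binds latrophilins, fell by a log2 change of -1.05 and Cbln3, a cerebellin, of -1.08. Of 16 postsynaptic scaffolds 4 fell, among them Gphn, the gephyrin of inhibitory synapses (-0.43), and 2 rose. Over organisers and scaffolds together these rises numbered 1 without any 1 of Klf4 siRNA samples 2, 3 and 4 or Scramble samples 2 and 3.

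**Figure D3:**
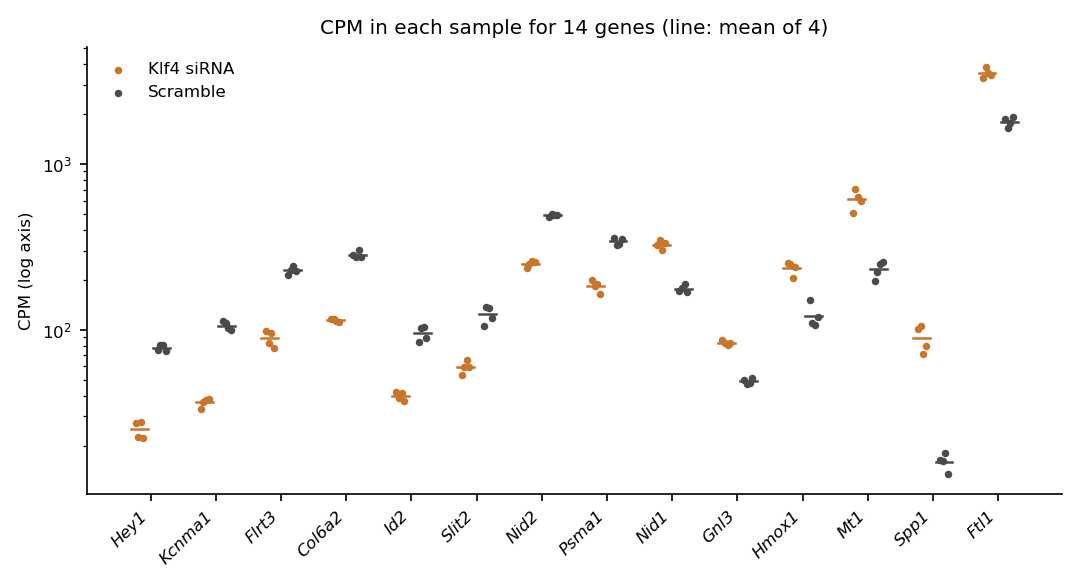
CPM on a log axis in each of the 4 Klf4 siRNA (orange) and 4 Scramble (grey) samples for 14 genes, with a line at each mean. In all 14 genes the points of the 2 groups are apart, from Hey1 (22.3 to 27.8 with Klf4 siRNA, 74.6 to 80.9 with Scramble) to Ftl1 (3309 to 3825 with Klf4 siRNA, 1650 to 1923 with Scramble).

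Among signalling pathways the BMP targets stood out. Of 48 tested TGF-beta and BMP genes, 21 fell and 5 rose (21 and 6 length-adjusted). All 4 ID genes, which encode BMP-induced proteins that hold back bHLH factors, fell, Id4 only narrowly. Id2 had 42.4, 38.5, 41.8 and 37 CPM in Klf4 siRNA samples, against 84.4, 103, 103 and 89.4 CPM in Scramble, a change of -1.25 ± 0.07 (adjusted p = 8.4e-08). Id1 (21.2 CPM with Klf4 siRNA, 33.5 CPM with Scramble) and Id3 (2.54 CPM with Klf4 siRNA, 7.44 CPM with Scramble) did not overlap between groups, whereas for Id4 the highest Klf4 siRNA sample, at 3.41 CPM, exceeded the lowest Scramble sample, at 2.89 CPM, and its adjusted p of 0.038 was above 0.05 when Klf4 siRNA sample 1 or 4 or Scramble sample 1, 2 or 3 was left out. The ligand Bmp2 fell to 28.5 CPM with Klf4 siRNA, against 53.3 CPM with Scramble, and so did 2 secreted BMP antagonists, Nog (-1.70) and Chrd (-0.50). So this ligand, these antagonists and the targets were lower. Over the whole list, the 12 ligands gave 2 rises and 2 falls, and the 15 inhibitors 2 rises and 8 falls.

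The 250 bases before the transcription start of Id2, the only well measured of the 4 ID genes, are printed to show the KLF-type letters. CACCC is in capitals (RefSeq, GRCm38.p6, chr12:25096093-25096342, minus strand, read 5′ to 3′).
Id2: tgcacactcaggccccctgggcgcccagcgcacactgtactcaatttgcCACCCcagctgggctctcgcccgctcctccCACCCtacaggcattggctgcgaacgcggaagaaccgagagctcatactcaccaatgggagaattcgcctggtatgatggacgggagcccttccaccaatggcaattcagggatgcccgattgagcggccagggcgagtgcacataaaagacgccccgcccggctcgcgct
The letters GGGTG or, on the other strand, CACCC occurred 2 times in this stretch. They occurred in 56.7% of the 1074 windows of well measured genes that fell, in 55.7% of the 1195 windows of those that rose and in 54.9% of the 3354 windows of those that did not pass. The SP-type letters GGGCGG or CCGCCC occurred in 67.3%, 58.4% and 65.4% of the same windows for genes that fell, rose and did not pass, and both motifs were read on both strands and may overlap at shared letters. A match is a description of letters and not a binding site.

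Wnt genes and growth factor receptors also leaned down. Notch genes did so less, with a share of falls near the background once length-adjusted. Of 28 Notch genes 8 fell and 2 rose (6 and 2 length-adjusted; 1 rise without Scramble sample 2), none of them among the 3 Notch receptors tested (0 also at an unadjusted p under 0.05, by DESeq2 and by limma voom). Jag1, a Notch ligand, averaged 55.7 CPM with Klf4 siRNA and 103 CPM with Scramble, and Dner, a neuronal Notch-binding protein, 80.4 CPM with Klf4 siRNA and 146 CPM with Scramble. Of 35 Wnt genes 15 fell and 2 rose (14 and 2 length-adjusted). The rises numbered 0 without Klf4 siRNA sample 3 or Scramble sample 1, and 1 without Klf4 siRNA sample 4 or Scramble sample 2 or 4. The falls included 7 of 11 receptors, such as Fzd4 (-0.73) and Fzd3 (-0.47). Of 28 receptor tyrosine kinases and co-receptors 13 fell and 3 rose (14 and 3 length-adjusted). Ntrk3, the neurotrophin-3 receptor, had 13.4, 11.3, 12 and 12.3 CPM in Klf4 siRNA samples, against 39.8, 40, 36.6 and 37.1 CPM in Scramble (-1.65 ± 0.07). Kdr, a VEGF receptor, fell by a log2 change of -1.12, and Kit, the stem cell factor receptor, rose to 3.09 CPM with Klf4 siRNA, against 1.03 CPM with Scramble.

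Genes that ERK signalling induces were mixed. Of 25 tested ERK feedback genes 9 rose and 4 fell (9 and 2 length-adjusted), and the rises held 5 of 11 dual-specificity phosphatases, which dephosphorylate MAP kinases. The 11 feedback inhibitors gave 2 rises and 3 falls. Dusp4 averaged 8.63 CPM with Klf4 siRNA and 2.44 CPM with Scramble (1.80), Dusp6 13.3 CPM with Klf4 siRNA and 6.68 CPM with Scramble, and the ETS factor Etv5 60.6 CPM with Klf4 siRNA and 36.8 CPM with Scramble. The 4 falls, led by Dusp14, numbered 2 without Klf4 siRNA sample 1 or without Scramble sample 1, 2 or 3. Secreted growth factors were mixed, with 9 rises and 10 falls of 36. Pros1, the vitamin K-dependent protein S that activates TAM receptors, rose (0.60), and Ptn, the neurite growth factor pleiotrophin, fell (-0.72). Of 37 RGS, cyclase and phosphodiesterase genes 11 fell and 2 rose (1 rise without Klf4 siRNA sample 2 or Scramble sample 1 or 2), among them the cAMP phosphodiesterases Pde4b (-0.79) and Pde4d (-0.71), both lower.

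Potassium channel genes leaned down, and other channel genes were mixed once length-adjusted. Of 33 tested potassium channel genes 13 fell and none rose by edgeR (10 and 1 length-adjusted), and 1 rose without Klf4 siRNA sample 1. Rises numbered 1 at an unadjusted p under 0.05, and 0 by DESeq2 and by limma voom. Beside Kcnma1, its accessory subunit Kcnmb2 fell to 2.85 CPM with Klf4 siRNA, against 5.55 CPM with Scramble. Kcnj2, an inward rectifier, fell to 3.75 CPM with Klf4 siRNA, against 7.72 CPM with Scramble. Most of this list was low: 4 members were well measured, and 3 of those fell. Of 28 sodium, chloride and cyclic-nucleotide channel genes 13 fell and 6 rose (10 and 8 length-adjusted). Slc12a2, the cotransporter that loads chloride into neurons, had 38.4, 49.8, 52.9 and 59.4 CPM in Klf4 siRNA samples, against 108, 115, 106 and 82.4 CPM in Scramble. All Klf4 siRNA values were below all Scramble values (-1.04 ± 0.12). Scn8a, a voltage-gated sodium channel, changed by -0.56.

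Receptors and secretory genes gave less of a common direction. Of 34 neurotransmitter receptors 8 fell and 6 rose (11 and 5 length-adjusted). Grm7, a presynaptic metabotropic glutamate receptor, averaged 29.2 CPM with Klf4 siRNA and 56.9 CPM with Scramble, and P2rx4, an ATP-gated channel, 66.3 CPM with Klf4 siRNA and 34.9 CPM with Scramble. Of 17 neuropeptide and granule genes 4 fell and 3 rose. Cpe, the carboxypeptidase that trims prohormones, rose to 422 CPM with Klf4 siRNA, against 295 CPM with Scramble, while Chgb, chromogranin B, fell to 1.72 CPM with Klf4 siRNA, against 4.85 CPM with Scramble. Vgf, a granin precursor, rose (1.25). Of 55 vesicle release genes 15 fell and 6 rose (13 and 4 length-adjusted), and 9 of the falls were among 20 calcium sensors and active zone proteins.

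The cytoskeleton leaned down with exceptions by subunit. Of 42 tubulin and microtubule genes 18 fell and 3 rose (15 and 4 length-adjusted), and the dendritic protein Map2 averaged 78.6 CPM with Klf4 siRNA and 122 CPM with Scramble. Of 58 motor genes 17 fell and 7 rose (13 and 8 length-adjusted), and without Scramble sample 2 these were 10 and 4. Kif26b, a kinesin of low level, fell to 1.36 CPM with Klf4 siRNA, against 7.42 CPM with Scramble. Of 75 actin and focal adhesion genes 23 fell and 10 rose (24 and 7 length-adjusted), and the falls numbered 14 without Scramble sample 2 and the rises 6 without Klf4 siRNA sample 2 and 5 without Scramble sample 3. Of 25 adhesion members 11 fell and none rose by edgeR (0 also at an unadjusted p under 0.05, by DESeq2 and by limma voom), while 32 actin regulators gave 9 rises and 6 falls. Within the Arp2/3 complex, which nucleates branched actin, Actr2, singled out after its values were seen, had 58, 48.5, 52.6 and 61.5 CPM with Klf4 siRNA and 83.1, 84.3, 93.1 and 81.4 CPM with Scramble (-0.63 ± 0.07). Of its partners, Actr3 (0.14), Arpc1b (0.36) and Arpc5 (0.20) rose, Arpc5 not in the length-adjusted fit. These partners were also chosen after their values were seen, and the other subunits of the complex are not described here. Anxa2, a calcium-dependent membrane-binding annexin, fell to 356 CPM with Klf4 siRNA, against 523 CPM with Scramble, and Anxa5 rose to 183 CPM with Klf4 siRNA, against 137 CPM with Scramble.

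**Figure D4:**
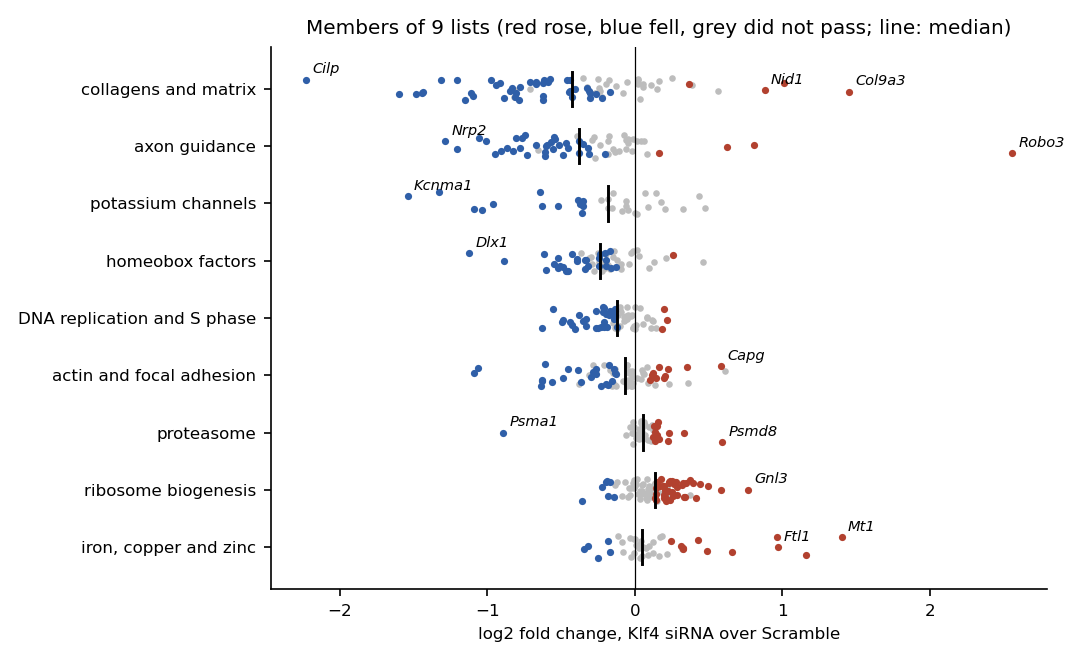
Log2 fold change of each tested member of 9 lists, with a black line at each list's median; red members rose, blue fell and grey did not pass. Matrix and guidance members spread to the left with Nid1, Col9a3 and Robo3 as exceptions, and Psma1 stands alone at -0.89 among proteasome genes.

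Among transcription factors, many homeobox genes fell, and MYC and ATF factors were among those that rose. Of 58 tested homeobox factors, which pattern the brain, 28 fell and 1 rose (23 and 1 length-adjusted; 2 rises without Klf4 siRNA sample 1), and without Scramble sample 2 the falls numbered 17. Thrb, a thyroid hormone receptor, had 64.4, 58.8, 59.6 and 61 CPM with Klf4 siRNA and 124, 120, 112 and 129 CPM with Scramble, a change of -0.99 ± 0.05. Of 49 AP-1, ATF, CEBP, MYC and MAF factors 15 rose and 5 fell (12 and 6 length-adjusted; 3 falls without Klf4 siRNA sample 2 or Scramble sample 1 or 2). Myc had 22, 23.5, 24.7 and 24.5 CPM in Klf4 siRNA samples, against 10.9, 9.44, 10.1 and 9.85 CPM in Scramble, and Atf3, a stress-induced repressor, 75.5, 81.8, 60.8 and 65.6 CPM with Klf4 siRNA, against 35.9, 33.7, 38 and 35.4 CPM with Scramble. Neither overlapped between groups (1.23 ± 0.08 and 0.99 ± 0.08). Junb rose too (0.70).

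Within its own family, Klf4 was the largest fall. Of 19 tested KLF and SP genes 5 rose and 5 fell (5 and 6 length-adjusted), and each count was 3 without either of 2 libraries, Klf4 siRNA sample 4 or Scramble sample 4 for rises and Scramble sample 2 or 3 for falls. Klf6 averaged 95.8 CPM with Klf4 siRNA and 62.5 CPM with Scramble, Klf10 124 CPM with Klf4 siRNA and 88 CPM with Scramble, and Klf2 12.3 CPM with Klf4 siRNA and 8.22 CPM with Scramble, all higher with Klf4 siRNA. Among clock genes 8 of 21 rose and 4 fell. The repressors Ciart (1.25), Bhlhe40 (0.70) and Nr1d1 (0.58) and the activator Dbp (0.67) were among the rises. Clock was among the falls (-0.34), and the lowest log2 change of the list was -0.53. Of 16 genes tied to KLF4 in other cells 5 rose and 3 fell, the rises led by Cdkn1a, the CDK inhibitor p21 (423 CPM with Klf4 siRNA, 225 CPM with Scramble). Cdkn1a is also on the p53 list that was set aside here.

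Genes of DNA replication fell by small amounts. Of 67 tested, 29 fell and 3 rose (5 rises without Klf4 siRNA sample 4), and length-adjusted the falls were 37, with a median log2 change of -0.12 in the unadjusted fit. Cdc6, which loads the replicative helicase, had 79.9, 74.2, 74 and 66.5 CPM in Klf4 siRNA samples, against 115, 112, 109 and 119 CPM in Scramble. No Klf4 siRNA value reached a Scramble value (-0.63 ± 0.06), and it was the largest fall of the list. Ccne2, cyclin E2, changed by -0.48 and E2f8, a repressive E2F, by -0.42. The 3 rises were Ccnd3, Cdk4 and Orc5, a D-type cyclin, its kinase and an origin subunit, each by at most 0.22, and Orc5 did not pass without any 1 of Klf4 siRNA samples 1 and 3 or Scramble samples 2, 3 and 4.

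Mitosis genes were split. Of 66 tested, 17 fell and 8 rose (17 and 9 length-adjusted), and the falls numbered 11 without Klf4 siRNA sample 3 or Scramble sample 4 and 10 without Scramble sample 2. Mki67, the proliferation antigen Ki-67, averaged 241 CPM with Klf4 siRNA and 331 CPM with Scramble, and Cdca2, a chromosome-bound phosphatase partner, 175 CPM with Klf4 siRNA and 257 CPM with Scramble. Cenpa, the centromeric histone, rose (0.22), and so did Pttg1, securin (0.27). Of 67 DNA repair genes 23 fell and 6 rose (18 and 7 length-adjusted). Homologous recombination and crosslink repair gave 10 falls of 19 genes and 6 of 11, and no rise by edgeR (0 also at an unadjusted p under 0.05, by DESeq2 and by limma voom), including Brca1 (-0.45) and Exo1 (-0.38). All 6 rises were in excision repair, such as Ercc5 (0.49) and Apex1 (0.36). Of 118 chromatin modifiers 28 fell and 11 rose, but length-adjusted these were 18 and 16. Smarca1 (60.2 CPM with Klf4 siRNA, 110 CPM with Scramble) and Smarca2 (200 CPM with Klf4 siRNA, 304 CPM with Scramble), ATPases that slide nucleosomes, had the largest falls of the list. Of 46 BCL2 family, caspase and death receptor genes 12 rose and 4 fell (13 and 5 length-adjusted), with 8 rises among 17 proapoptotic members. Tnfrsf12a, the TWEAK receptor, rose (0.79), as did Bid (0.88), which links death receptors to mitochondria, and Tnfrsf21, death receptor 6, fell (-0.54).

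**Figure D5:**
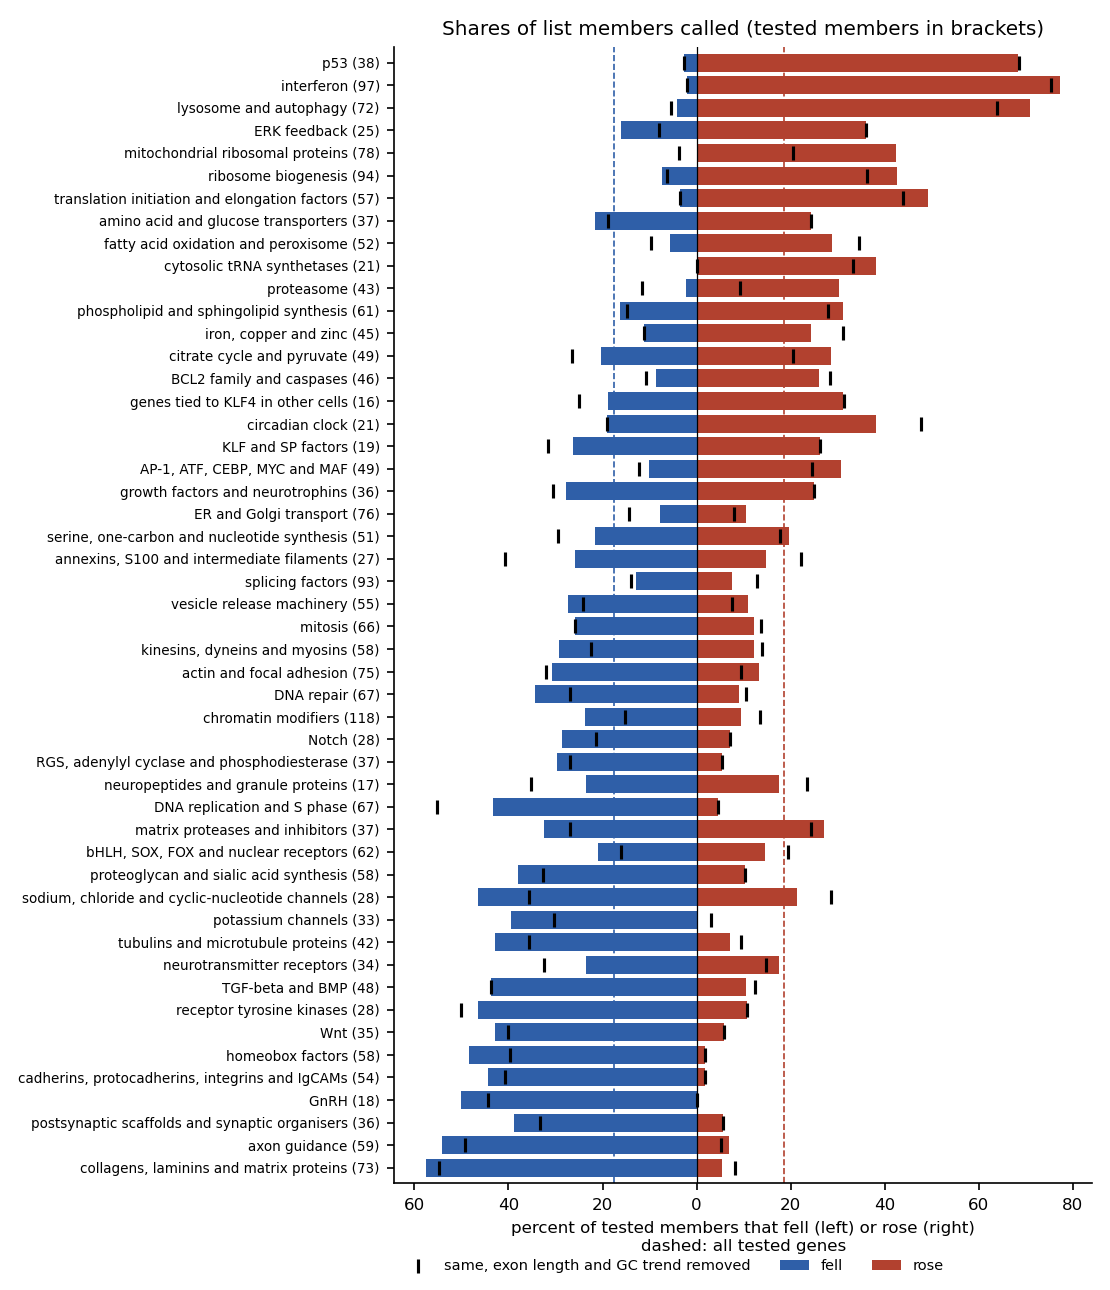
Percent of tested members of each list that fell (blue, left) or rose (red, right), with list sizes in brackets, ticks at the shares after removal of the exon length and GC trend, and dashed lines at the shares of all tested genes (17.5% and 18.5%). Matrix, guidance, adhesion and homeobox lists pass the blue line on both readings, and mitochondrial ribosomal and proteasome lists lose much of their red bar once the trend is removed.

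The largest rises were ranked among well measured genes without overlap, outside gene models and the interferon, p53, lysosome and GnRH lists. Of the 10 largest, 4 were in a secreted protein, metallothioneins and an adhesion molecule. Some genes of lower level rose further, such as Robo3 (2.56). Spp1, the secreted phosphoprotein osteopontin, had the largest rise of any well measured gene the naming rule allowed, with 101, 105, 70.9 and 80.2 CPM in Klf4 siRNA samples, against 16.3, 16.2, 17.9 and 13.5 CPM in Scramble. The groups were far apart (2.48 ± 0.12; adjusted p = 2.2e-08). Vcam1, an adhesion molecule for leukocytes, had 115, 105, 93.6 and 103 CPM with Klf4 siRNA and 42.3, 38.2, 38.8 and 42.7 CPM with Scramble (1.36). Sat1, the enzyme that acetylates polyamines for breakdown, averaged 166 CPM with Klf4 siRNA and 67.4 CPM with Scramble (1.30). Ephx1, an epoxide hydrolase, rose by 1.2 on the log2 scale. Dpp7, a lysosomal dipeptidyl peptidase that the lysosome list did not hold, rose by 1.11. Rnf128, a ubiquitin ligase, rose by 1.07 and Trib3, a pseudokinase induced by stress, by 0.99. Mif, a cytokine with tautomerase activity, rose by 1.28, but its processed pseudogenes make the count uncertain.

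Of 45 iron, copper and zinc genes 11 rose and 5 fell (14 and 5 length-adjusted), the 5 falls numbering 3 without Klf4 siRNA sample 3. The metallothioneins Mt1 and Mt2, small proteins that bind zinc and copper, led. Mt1 had 504, 705, 634 and 601 CPM in Klf4 siRNA samples, against 197, 224, 248 and 256 CPM in Scramble (1.4 ± 0.10; adjusted p = 3e-07). Mt2 had 78.6, 111, 95.8 and 86.2 CPM with Klf4 siRNA and 33.5, 42.8, 47.2 and 43 CPM with Scramble (1.16 ± 0.11). Both genes were higher in all 4 Klf4 siRNA samples, and in both Klf4 siRNA sample 1 was the lowest of its group. Slc30a1, a zinc exporter and another gene known to respond to metal, chosen after its values were seen, averaged 20.1 CPM with Klf4 siRNA and 17.7 CPM with Scramble and did not pass (adjusted p = 0.36).

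Since Mt1 and Mt2 are neighbours that changed alike, the 250 bases before each start are printed (RefSeq, GRCm38.p6, plus strand). Capitals mark TGCNCNC on either strand with A or G at its first N, letters of metal response elements that were chosen after the values were seen. Mt1 is at chr8:94178839-94179088 and Mt2 at chr8:94172368-94172617.
Mt1: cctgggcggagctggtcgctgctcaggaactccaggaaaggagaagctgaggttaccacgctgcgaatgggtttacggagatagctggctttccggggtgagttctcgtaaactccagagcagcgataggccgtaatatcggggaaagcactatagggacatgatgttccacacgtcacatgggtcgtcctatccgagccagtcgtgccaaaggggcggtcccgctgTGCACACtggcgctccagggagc
Mt2: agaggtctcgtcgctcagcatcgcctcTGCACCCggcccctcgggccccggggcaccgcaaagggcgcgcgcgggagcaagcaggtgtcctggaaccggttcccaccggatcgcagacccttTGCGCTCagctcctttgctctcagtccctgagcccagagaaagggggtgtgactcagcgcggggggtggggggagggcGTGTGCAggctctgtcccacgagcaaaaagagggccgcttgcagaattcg
The windows held 1 match in Mt1 and 3 in Mt2, and such letters occurred in 31.0% of the 9838 windows of tested genes. Letters outside these 250 bases, on either side, were not counted, so the counts do not compare the whole promoters. Mt2 also held 3 of the KLF-type letters and Mt1 held 1. The metal letters can hold CACCC within them, as in the first match of Mt2.

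Several iron genes rose as well. Ftl1, the ferritin light chain, had 3309, 3825, 3530 and 3422 CPM in Klf4 siRNA samples, against 1866, 1650, 1755 and 1923 CPM in Scramble, the largest rise in absolute level (0.97 ± 0.05). Fth1, the heavy chain, averaged 1754 CPM with Klf4 siRNA and 1400 CPM with Scramble, a smaller log2 change of 0.33, and both genes have pseudogenes that may share reads. Tfrc, the transferrin receptor, averaged 311 CPM with Klf4 siRNA and 197 CPM with Scramble, and Hmox1, which releases iron from heme, 237 CPM with Klf4 siRNA and 121 CPM with Scramble. The groups did not overlap for any of these 4.

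The 15 largest rises also held Uap1l1, Gnpda1 and Pmm1. Uap1l1, a relative of the enzyme that makes UDP-GlcNAc, averaged 113 CPM with Klf4 siRNA and 47.8 CPM with Scramble (1.24). Gnpda1, which deaminates glucosamine 6-phosphate, changed by 1.04 and Pmm1, a phosphomannomutase, by 1.02. Renbp, an N-acetylglucosamine epimerase, had 403, 390, 383 and 383 CPM in Klf4 siRNA samples, against 221, 196, 202 and 222 CPM in Scramble (0.89 ± 0.05). Amdhd2 (0.71), a deacetylase, and Nagk (0.53), the N-acetylglucosamine kinase, were looked up after these values were seen and rose too.

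Protein synthesis genes rose by modest amounts. Of 94 ribosome biogenesis genes 40 rose and 7 fell (34 and 6 length-adjusted), with a median log2 change of 0.14, and the falls numbered 4 without Klf4 siRNA sample 2, Scramble sample 3 or Scramble sample 4. Gnl3, the nucleolar GTPase nucleostemin, had 86.4, 83.4, 80.8 and 83.1 CPM with Klf4 siRNA and 50, 46.8, 48 and 51.3 CPM with Scramble, a change of 0.77 ± 0.05 with no overlap. Nhp2, a protein of H/ACA guide particles, changed by 0.59, and Polr1a, the large subunit of RNA polymerase I, fell (-0.36). Of 57 translation factors 28 rose and 2 fell (25 and 2 length-adjusted), such as Eif1a (0.38), a factor of start codon scanning, and Pabpc1 (0.46), which binds poly(A) tails. The 2 falls were Eif4g3 (1.38 CPM with Klf4 siRNA, 3.77 CPM with Scramble) and Eif4g2 (-0.13), which did not pass length-adjusted or without Klf4 siRNA sample 1 or Scramble sample 1, 2 or 4. Of 21 cytosolic tRNA synthetase genes 8 rose and none fell by edgeR (7 and 0 length-adjusted, and 0 falls also at an unadjusted p under 0.05, by DESeq2 and by limma voom), led by Sars (335 CPM with Klf4 siRNA, 230 CPM with Scramble). Lars2, the mitochondrial leucyl-tRNA synthetase, had the second largest rise in absolute level, with 4394 CPM in Klf4 siRNA samples and 2919 CPM in Scramble. Its level was far above that of Sars. How reads with several matches were treated was not given, so its count may include reads from similar sequences.

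Short-gene lists depended on the length trend. Of 78 mitochondrial ribosomal protein genes, with a median exon length of 2394 bases, 33 rose and none fell by edgeR (0 also at an unadjusted p under 0.05, by DESeq2 and by limma voom), but length-adjusted 16 rose and 3 fell, and without Klf4 siRNA sample 2 the rises numbered 21. Mrps18a averaged 84.8 CPM with Klf4 siRNA and 65.7 CPM with Scramble. Of 43 proteasome genes 13 rose and 1 fell, but length-adjusted 4 rose and 5 fell. Leaving out 1 of Klf4 siRNA samples 2 and 3 or Scramble samples 1, 2 and 3 gave 5 to 7 rises. Psma1, a subunit of the outer ring of the core particle, was the fall. It had 198, 183, 187 and 165 CPM in Klf4 siRNA samples, against 358, 326, 328 and 352 CPM in Scramble (-0.89 ± 0.06; adjusted p = 1.3e-07), far outside the spread of either group. Psmd8, a subunit of the regulatory cap, changed by 0.59, with a mean of 257 CPM in Klf4 siRNA samples and 170 CPM in Scramble. Splicing factors and ER to Golgi transport were near or below the background in both directions, with 7 rises and 12 falls of 93 genes and 8 rises and 6 falls of 76. Length-adjusted these were 12 and 13, and 6 and 11. Without Scramble sample 2 there were 6 falls for splicing, and splicing rises numbered 4 without Klf4 siRNA sample 4 and 3 without Scramble sample 1. Transport rises numbered 5 without Klf4 siRNA sample 3 or Scramble sample 1 and 4 without Scramble sample 2.

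Metabolic lists were mixed. Of 52 fatty acid oxidation and peroxisome genes 15 rose and 3 fell (18 and 5 length-adjusted), among them Acadl, a long-chain dehydrogenase (0.35), and Cat, catalase (0.31). Of 61 phospholipid and sphingolipid genes 19 rose and 10 fell (17 and 9 length-adjusted). Lpin1, a phosphatidate phosphatase, averaged 110 CPM with Klf4 siRNA and 79.7 CPM with Scramble, and Smpd3, a neutral sphingomyelinase, 17.2 CPM with Klf4 siRNA and 34.3 CPM with Scramble. Citrate cycle and pyruvate genes gave 14 rises and 10 falls of 49 (10 and 13 length-adjusted), with Idh2 (-0.39) and Ogdh (-0.33), both mitochondrial enzymes of the cycle, lower and Got1, a cytosolic aminotransferase, higher (0.39). Serine, one-carbon and nucleotide genes gave 10 rises and 11 falls of 51 (9 and 15 length-adjusted), and 6 of 14 pyrimidine genes fell. Ahcyl2 fell to 184 CPM with Klf4 siRNA, against 303 CPM with Scramble, and Aprt, which salvages adenine, rose to 199 CPM with Klf4 siRNA, against 129 CPM with Scramble. Of 37 amino acid and glucose transporters 9 rose and 8 fell. Slc6a8, the creatine transporter, changed by 0.67 and Slc7a5, the large neutral amino acid transporter, by -0.32.

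For scale, among the lists set aside here 75 of 97 interferon genes, 26 of 38 p53 genes and 51 of 72 lysosomal genes rose, with 2, 1 and 3 falls (1 lysosomal fall without Scramble sample 2), and 9 of 18 GnRH genes fell. These were chosen with the same samples in view and are no independent evidence of direction. Markers of other cell types were sparse. Of 9 astrocyte markers 4 were tested, with 2 rises and 1 fall, and their summed level was 134 to 153 CPM with Klf4 siRNA and 120 to 128 CPM with Scramble. Of 8 fibroblast and pericyte markers 6 were tested and 4 fell, with sums of 229 to 262 CPM with Klf4 siRNA and 309 to 339 CPM with Scramble. This list shares Col1a1 (8.42 CPM with Klf4 siRNA, 22.8 CPM with Scramble) and Col3a1 with the matrix list, and its part in the fall of matrix genes was not tested. Of 8 endothelial markers 2 were tested, Kdr and Tek, and of 12 microglial markers 3, none of them well measured. Of 12 neuron markers 6 were tested, 2 fell and none rose by edgeR (0 also at an unadjusted p under 0.05, by DESeq2 and by limma voom), at sums of 376 to 424 CPM with Klf4 siRNA and 425 to 457 CPM with Scramble.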

How the data were processed

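RNA was extracted with Trizol and made into libraries with a Takara SMART-Seq kit that keeps no strand information, per the labels' protocols, so overlapping genes and close copies or pseudogenes cannot be told apart. The authors deposited raw counts of reads per Ensembl gene for each sample. Per the submitters' processing notes, the build was mm10 and the tools were STAR, Subread, edgeR, FastQC and STAR-Fusion. How reads with several matches were treated was not given in the sources used here. Beside the counts, the authors' log2 fold changes and FDR values (p-values adjusted by them), per the file headers, served only as a check. Gene length is the deposited one. Positions and GC content came from GENCODE M21 (12667 of 12676 IDs matched without version), and promoter sequence from RefSeq (GRCm38.p6), where 9838 of 12646 tested symbols had a window.

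Samples were grouped by title. Of 12676 listed genes, 12663 passed edgeR's default filter. The test was the quasi-likelihood test of edgeR 4.0.16 (R 4.3.3; TMM, no block), with Benjamini-Hochberg adjustment at 0.05. The SE is the log2 fold change divided by the square root of F. CPM were TMM-scaled over the 8 samples. The biological coefficient of variation was 8.01%, and intervals cover the spread between these samples. The test was tried on simulated counts. Alternatives used DESeq2 1.42.0, limma 3.58.1, other scaling, filters, samples and offsets for GC content and length.

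Members, gene lists and tests were chosen with earlier results of these data known. Named genes are Klf4, then the 15 largest rises and falls and the 10 largest by CPM each way among well measured called genes without overlap, leaving out gene models and the interferon, p53, lysosome and GnRH lists, and up to 4 members per list with the smallest p; the text names part of them. Chosen after their values were seen were the 3 gene models, Col9a3, Nid1, Amdhd2, Nagk, Tfrc, Robo1, Actr2, Actr3, Arpc1b, Arpc5, Id1, Id3, Id4, Eif4g2, Eif4g3, Dusp14, Ccnd3, Cdk4, Orc5, Clock, Itga7, Polr1a and Slc30a1.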

Additional observations from a re-analysis of the deposited data

Results flagged for a closer look

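Among 320 sets of 4 values, 1 per named gene and group, 13 (4.06%) had a sample far from the other 3, and chance alone flags about 1 in 20. In the Klf4 siRNA group these were Smarca2 at 188 CPM in sample 1, Ccne2 at 107 CPM in sample 2 and Sparc at 1653 CPM in sample 4, each below the others. In Scramble, sample 1 was low for Anxa2 (482 CPM) and high for Ogdh (270 CPM) and Fzd3 (83.3 CPM). Scramble sample 2 was low for Gnpda1 (22.2 CPM), Amdhd2 (35 CPM) and Exo1 (60 CPM), and Scramble sample 3 was high for Arpc5 (226 CPM). Scramble sample 4 was high for Tuba1a (3580 CPM) and low for Kcnj2 (6.01 CPM) and Slc30a1 (12.3 CPM).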

How the results depend on the processing

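Counts of rises and falls stayed within 1.5 times of 2345 and 2216 under each alternative run. Without 1 sample, rises ranged from 1873 to 2344 and falls from 1658 to 2290, well measured rises from 1226 to 1503 and falls from 1014 to 1482, genes past a fold of 1.2 from 1019 to 1267 and intervals close to 0 from 4964 to 5766. Genes past a fold of 1.2 numbered 812 under the stricter filter (10 CPM in 4 samples), and 347 passed a fold of 1.5. At a mean log2 CPM of at least 6, 989 genes rose and 913 fell, and within 0.2 of 0 there were 2571 intervals. Fewer genes enter under each of these settings or the bound is tighter by construction. The labels do not say whether replicate numbers pair the samples. Same-numbered deviations correlated at -0.11, -0.0234, 0.1 and -0.159, and those of different numbers at -0.118 to 0.218. Such weak correlations cannot show whether samples shared a culture or day. With a replicate block, 2013 genes rose and 1867 fell, 1285 and 1151 of them well measured, 1138 passed a fold of 1.2 and 5228 intervals lay close to 0, and 3806 of 4561 calls were shared. With the length and GC trend removed, 3658 of 4559 calls were shared in direction. Of 1938 list counts under 17 alternatives, 121 moved by over 1.5 times. Of 160 genes named, 8 lost a call under at least 1 alternative that tested them, and none turned. These were the 3 gene models under limma voom, Arpc5 and Eif4g2 length-adjusted, and Eif4g2 with a replicate block. Col3a1, Orc5, Id4 and Eif4g2 lost it with a sample left out. Beyond that, the cause was not tested. Low genes such as Klf4 did not enter the fit with the stricter filter, so their calls were not checked there. Klf4 rests on 30 to 187 reads a sample, and the median SE was 0.055 for well measured genes and 0.112 for the other 5591.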

Other observations

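In the authors' deposited table, 4331 of the tested genes had an FDR under 0.05, and 4205 of these were called here in the same direction.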
